A study of Homo sapiens with 56 samples.

Results

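HCT116, an established human colorectal carcinoma line, was compared after exposure to 10 mM 2-methylisocitrate (2-MiCit) and after its vehicle, water. All genes were taken from the 8 HCT116 libraries, 4 per group, out of 56 libraries of 7 colorectal cancer lines in the series. Both groups were wild-type epithelial cells grown in complete medium in multiwell plates, and the water group carried no other agent. The only labelled difference between them was the compound, and the sources used here do not give the time of exposure. HCT116 is known for deficient DNA mismatch repair and for intact p53. The libraries of a group are numbered 1 to 4, and no label ties a number to its own culture, so every p-value reflects the spread among these libraries alone, and that spread may be technical. The study addressed how a metabolite linked to cancer-associated bacteria modulates chemotherapy, and no library was labelled with a drug.

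2-MiCit is an intermediate of the methylcitrate cycle, by which bacteria and fungi break down propionate. It resembles isocitrate, a substrate of the citric acid cycle, with an added methyl group. Cells respond to shortage of amino acids or to stress of the endoplasmic reticulum and mitochondria through the integrated stress response. In it, phosphorylation of the initiation factor eIF2 lowers general translation and raises the factor ATF4, which switches on amino acid carriers, amino acid synthesis and charging of tRNA. The processes described here are carriers, amino acid supply, splicing, adhesion, protein quality control, mitochondria and a few signalling readouts.

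Library totals ran from 14.9 to 19.4 M counts. Of 16485 genes in the table, 13834 passed the filter on low counts and were tested with the quasi-likelihood F test of edgeR. Genes count as called when their p, adjusted over all tested genes by the Benjamini-Hochberg method, was below 0.05. Levels are in CPM, counts scaled to a common library size, and fold changes are 2-MiCit over control. Of the tested genes, 19.0% were called higher (2635) and 18.0% lower (2489), 37.0% in all. Those 2 shares are the background against which each list below is read. Lists and their members were chosen with earlier results of these data known, so their counts are a description and not a test. The groups did not overlap for 35.6% of tested genes (4924). Genes given by library were chosen among called genes without overlap, so their separation follows from that choice. Where none of a list rose or fell by edgeR, DESeq2 also called 0 of its members in that direction and 0 had an unadjusted p below 0.05 there, unless other values are given. Most changes were small, since the median called gene moved 1.30-fold and 1.65% of tested genes were called higher by over 2-fold and 0.210% lower. The median log2 fold change of all tested genes was 0.03. Of the tested genes, 50 passed the filter through 1 group only. Levels from bulk RNA are relative, so fewer cells in a given state and less RNA of a gene per cell cannot be told apart.

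Libraries of a group correlated at 0.974 to 0.983 for controls and 0.975 to 0.980 for 2-MiCit on log2 CPM, against 0.963 to 0.973 between groups. The first principal component, 32.2% of the variance, put the 4 controls on one side and the 4 treated libraries on the other. The second, 17.9% of the variance, ordered the libraries of both groups as 1, 3, 2 and 4. Mitochondrially encoded genes held 1.63% to 2.72% of the counts in controls and 2.68% to 4.06% with 2-MiCit, and the part of this share in the results was not tested. Deviations of each library from the mean log2 CPM had a slope with log2 transcript length. That slope ran from -0.072 to 0.019 in controls and from -0.021 to 0.080 with 2-MiCit. Alternative fits with this length trend removed are given where they change a list. Of 12 markers of colon epithelium, 10 were in the table, with a summed level of 4721 to 5235 CPM in controls and 6585 to 7513 CPM with 2-MiCit. Of the 9 tested, 6 rose and 2 fell, among them the intestinal factor CDX2 (log2 fold change -0.25, adjusted p = 0.013). Of 8 fibroblast markers 3 were in the table (14.7 to 22.2 CPM in controls, 16.3 to 22.2 CPM treated), of 9 leukocyte markers 4 (7.45 to 9.35 and 5.81 to 7.68 CPM), and of 7 endothelial markers 2, near 0 (0.27 to 0.63 and 0.59 to 0.87 CPM). Of 7 neural markers 4 were in the table, at 62.1 to 75.8 CPM in controls and 96.1 to 116.7 CPM treated. The neural genes that rose were MBP (log2 fold change 0.69) and SYT1 (0.42).

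**Figure D1:**
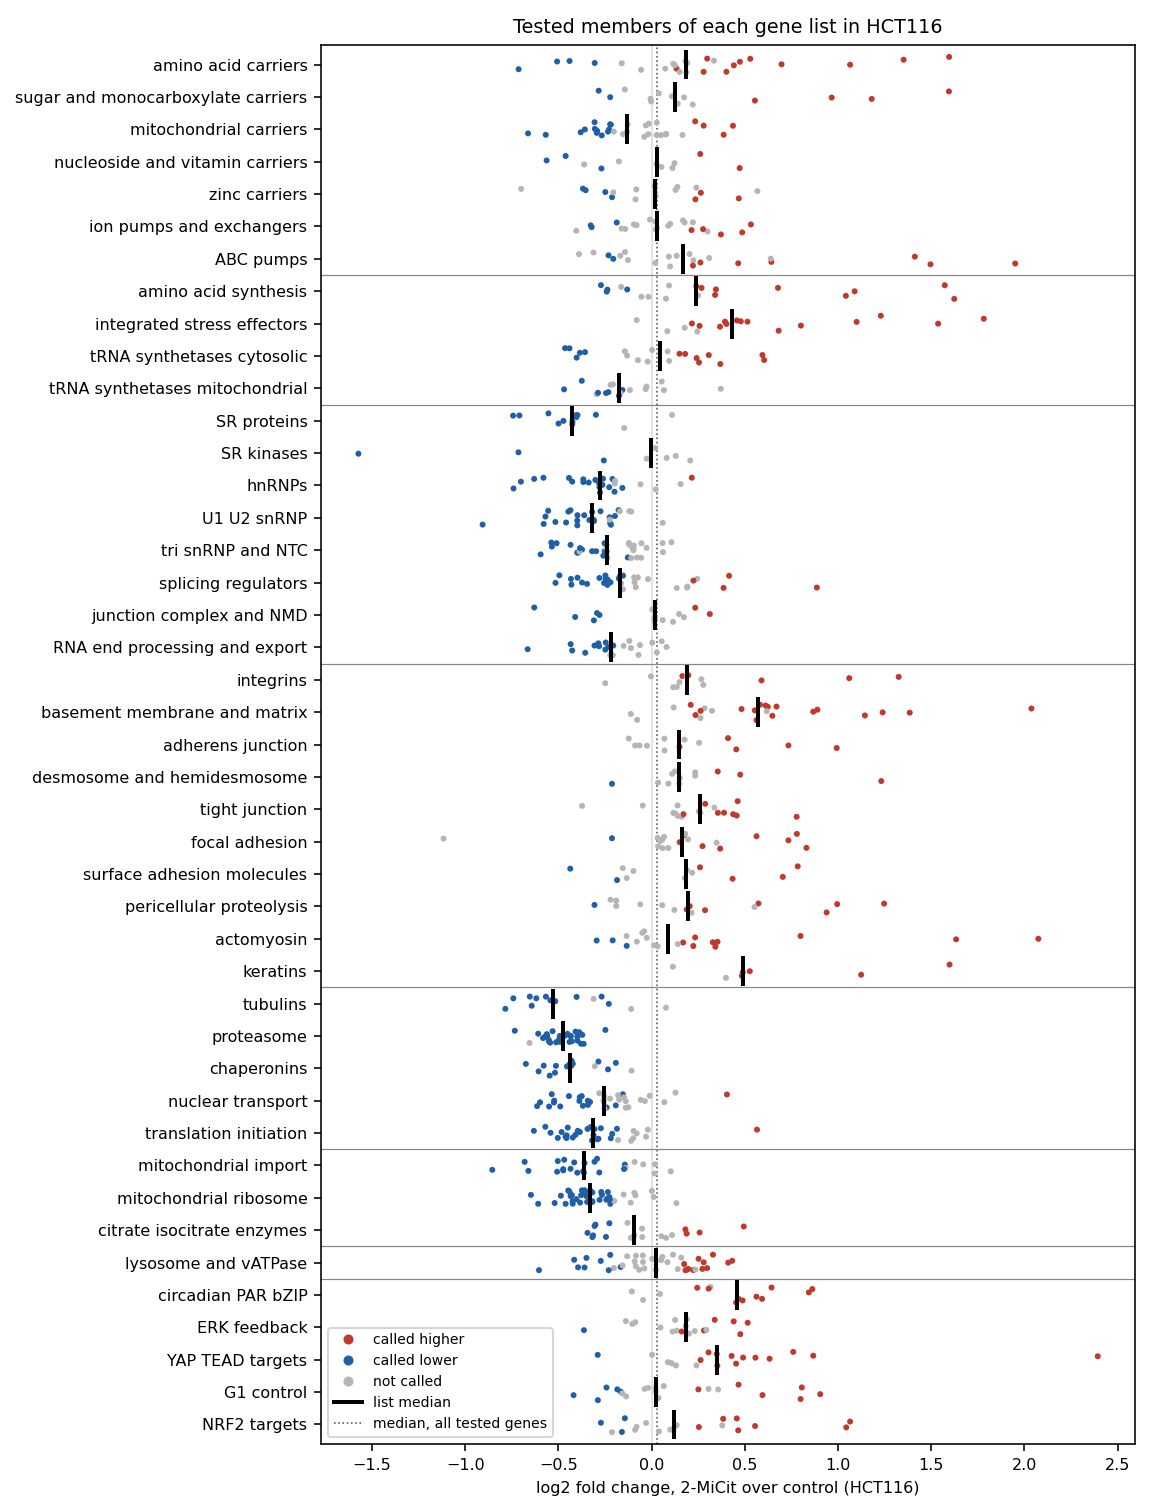
Log2 fold change (2-MiCit over control, x axis) of each tested member of 43 gene lists in HCT116, grouped by theme on the y axis. Red points were called higher, blue points lower and grey points were not called; black bars are list medians and the dotted line is the median of all tested genes, 0.03. Splicing, proteasome, chaperonin, translation and mitochondrial ribosome lists lie left of the dotted line, and stress effector, matrix, keratin and circadian lists lie right of it.

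More carriers of amino acids at the cell surface rose than fell. These proteins exchange or co-transport amino acids across the membrane, and several of them are known targets of ATF4. Of 25 tested members, 11 rose, 4 fell and 10 were not called, with a median log2 fold change of 0.19 against 0.03 over all genes. SLC1A4, an exchanger of alanine, serine and cysteine (ENSG00000115902, chromosome 2, 64988477 to 65023865), stood at 5.92, 6.51, 6.69 and 5.04 CPM in controls 1 to 4 and at 17.3, 18.8, 18.5 and 18.6 CPM in 2-MiCit libraries 1 to 4. All 4 treated libraries lay above all 4 controls, and SLC1A4 rose 3.02-fold (log2 fold change 1.60, SE 0.10, adjusted p = 7.38e-06). SLC6A9, the glycine carrier GlyT1 (ENSG00000196517, chromosome 1, 43991500 to 44031467), had 4.81, 5.71, 5.40 and 4.59 CPM in controls and 11.7, 14.7, 12.0 and 14.1 CPM with 2-MiCit. The groups did not overlap and SLC6A9 rose 2.55-fold (adjusted p = 3.04e-05). SLC7A11 is the cystine and glutamate antiporter that feeds glutathione synthesis (ENSG00000151012, chromosome 4, 138164097 to 138242349). It was measured at 50.3, 62.2, 55.0 and 68.4 CPM in controls and 105, 137, 105 and 148 CPM in treated libraries. No treated value of SLC7A11 reached down to the controls, a 2.09-fold rise (adjusted p = 4.47e-04).

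SLC7A5, the large neutral amino acid carrier LAT1, rose less, with 859.8, 972, 931 and 934 CPM in controls, 1224, 1389, 1328 and 1396 CPM with 2-MiCit and a log2 fold change of 0.53 (adjusted p = 1.21e-04). Its partner chain SLC3A2 rose by 0.28, the cationic carrier SLC7A1 by 0.40, the glutamine carrier SLC38A2 by 0.47 and the leucine carrier SLC43A1 by 0.70 on the log2 scale. The fallers included SLC38A5, a glutamine and glycine carrier (ENSG00000017483, chromosome X, 48458537 to 48470256), at 45.7, 48.3, 46.9 and 45.0 CPM in controls and 30.7, 25.4, 30.4 and 26.8 CPM with 2-MiCit. Here the treated libraries were the low ones without overlap, and SLC38A5 fell by 0.71 on the log2 scale (adjusted p = 7.87e-05). The proton-coupled amino acid carrier SLC36A4 fell by 0.44 and the cationic carrier SLC7A2 by 0.51. The neutral carrier SLC38A1 had a log2 fold change of 0.13 and was not called (adjusted p = 0.404).

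Among 14 tested sugar and monocarboxylate carriers, 4 rose and 2 fell, with a median log2 fold change of 0.13. The shares were near the background of 19.0% and 18.0%, so the list is not read as a result about these carriers. As single genes, the glucose carriers SLC2A1 and SLC2A3 rose, and the lactate carriers SLC16A1 and SLC16A3 fell by small amounts. SLC2A1, the widespread glucose carrier GLUT1 (ENSG00000117394, chromosome 1, 42925375 to 42959176), read 257, 265, 266 and 254 CPM in controls and 370.3, 382, 405 and 374 CPM with 2-MiCit. Treated libraries were all higher, by 1.47-fold (adjusted p = 2.86e-05). SLC2A3, the high-affinity carrier GLUT3 (ENSG00000059804, chromosome 12, 7919230 to 7936275), read 10.9, 9.66, 10.7 and 11.0 CPM and 19.4, 19.2, 21.0 and 22.9 CPM, again without overlap, a 1.95-fold rise (adjusted p = 3.37e-05). SLC16A5, a member of the monocarboxylate carrier family, went from 18.2, 19.5, 21.3 and 18.3 CPM to 40.4, 44.7, 43.8 and 46.6 CPM. Every treated library exceeded every control for SLC16A5, by 2.27-fold on average (adjusted p = 9.97e-06). SLC16A1 (MCT1) and SLC16A3 (MCT4), which carry lactate and pyruvate with a proton, fell by 0.22 and 0.28 on the log2 scale (adjusted p = 0.00624 and 0.00674). SLC13A5, the plasma membrane citrate carrier, was low at 1.04 CPM in controls and 1.12 CPM treated and was not called (log2 fold change 0.11, adjusted p = 0.777).

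Of 22 ATP-binding cassette pumps, which move lipids, drugs and conjugates at the cost of ATP, 7 rose and 2 fell (median log2 fold change 0.17). With the trend of each library with transcript length removed, 5 rose and 4 fell, and without control replicate 2 the fallers numbered 1. ABCC3, an exporter of organic anions with the highest fold change of the list, had 14.1, 9.82, 11.9 and 9.69 CPM in controls and 49.3, 38.1, 40.4 and 47.4 CPM treated. The lowest treated ABCC3 value was above the highest control (log2 fold change 1.95, adjusted p = 1.31e-05). ABCA3, a phospholipid pump (ENSG00000167972, chromosome 16, 2275881 to 2340746), rose from 5.99, 5.39, 6.24 and 5.88 CPM to 15.8, 15.4, 14.8 and 16.4 CPM. Its groups were also apart, at 2.66-fold (adjusted p = 5.00e-06). The conjugate exporter ABCC2 rose 1.38-fold (adjusted p = 0.0011) and the cholesterol exporter ABCA1 2.82-fold from a low level (0.562 CPM in controls, adjusted p = 0.00757). The multidrug pumps ABCB1 and ABCG2 had log2 fold changes of -0.31 and -0.39, and neither was called (adjusted p = 0.0922 and 0.151). ABCB1 was called lower without control replicate 1 (adjusted p = 0.0483) and ABCG2 without 2-MiCit replicate 4 (adjusted p = 0.0445). ABCC1 was not called at 0.10 (adjusted p = 0.776).

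More carriers of the mitochondrial inner membrane fell than rose. Of 31 tested, 13 fell and 4 rose, with a median log2 fold change of -0.13, and the count of risers was 2 without control replicate 2, without control replicate 4 or without 2-MiCit replicate 1. SLC25A10, which exchanges succinate and malate for phosphate (ENSG00000183048, chromosome 17, 81712236 to 81721016), measured 84.4, 79.3, 85.4 and 73.6 CPM in controls and 55.9, 51.3, 59.4 and 51.0 CPM with 2-MiCit. All treated values were below the controls (fell by 0.57 on the log2 scale, adjusted p = 2.23e-04). SLC25A13, an aspartate and glutamate carrier, fell by 0.66 and its paralog SLC25A12 by 0.23. The oxoglutarate carrier SLC25A11 fell by 0.36 and the citrate carrier SLC25A1 by 0.31 (adjusted p = 7.82e-04 and 0.00714). The pyruvate carrier subunits MPC1 and MPC2 had log2 fold changes of -0.018 and -0.039 and were not called. Of the paralogs linked to glutathione import, SLC25A40 rose by 0.39 and SLC25A39 fell by 0.29 (adjusted p = 0.00244 and 0.0113).

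Among 11 carriers of nucleosides and vitamins, 2 rose and 3 fell. SLC29A1, the nucleoside carrier ENT1 that also admits nucleoside drugs (ENSG00000112759, chromosome 6, 44219505 to 44234151), had 116, 116, 121 and 107 CPM in controls and 85.3, 80.6, 84.9 and 83.7 CPM with 2-MiCit. The treated libraries were lower without overlap (fell by 0.46 on the log2 scale, adjusted p = 1.20e-04). SLC19A1, the reduced folate carrier and entry route of antifolates (ENSG00000173638, chromosome 21, 45493572 to 45544411), had 91.6, 84.4, 90.6 and 75.3 CPM and 56.2, 58.5, 64.3 and 52.5 CPM. It fell by 0.56 on the log2 scale with separate groups (adjusted p = 4.87e-04). The biotin and pantothenate carrier SLC5A6 fell by 0.27, and the lysosomal nucleoside carrier SLC29A3 rose by 0.47. Of 17 zinc carriers 3 rose and 4 fell, SLC39A1 at the plasma membrane by 0.37 (adjusted p = 0.0011). The zinc fallers numbered 2 without control replicate 2. Of 23 ion pumps and exchangers 5 rose and 3 fell. The calcium pump ATP2A3 rose by 0.49, and its relative ATP2A2 fell by 0.33 (adjusted p = 4.55e-04 and 0.0152). The shares called among nucleoside, zinc and ion carriers were near the background of 19.0% and 18.0%, with medians of 0.02 to 0.03, and are not read as results about these carriers.

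**Figure D2:**
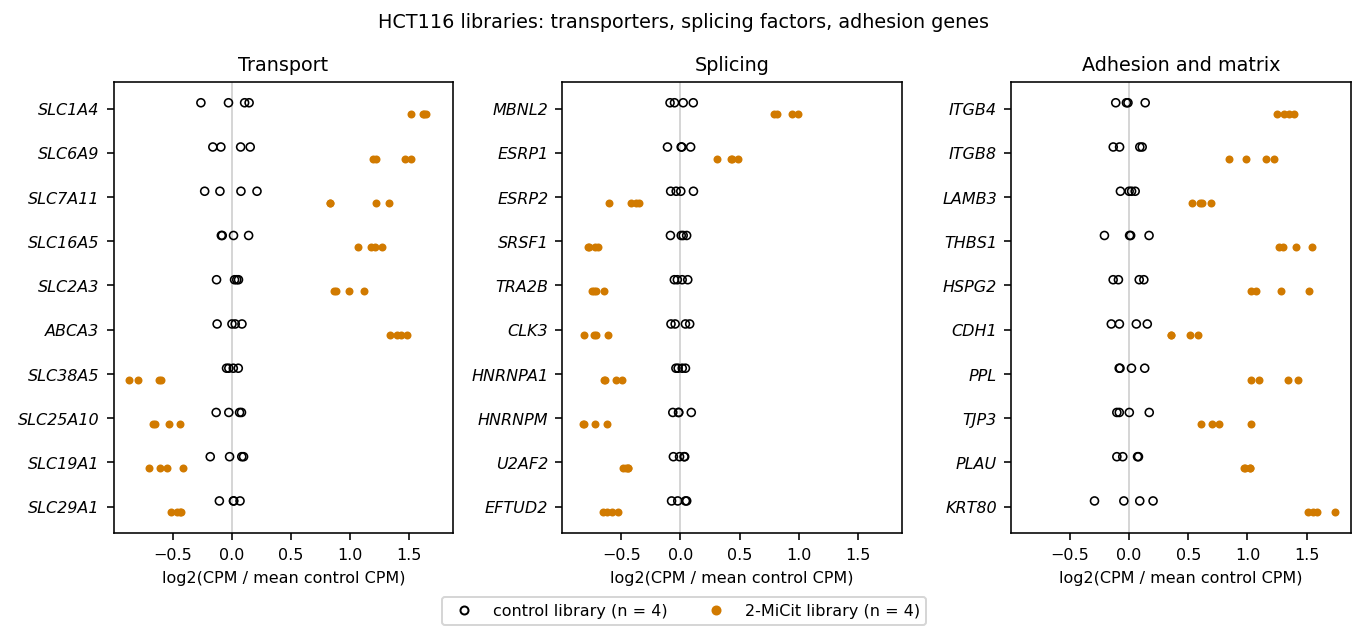
Level of each of 30 genes in every HCT116 library, as log2 of CPM over the mean control CPM (x axis), with open circles for the 4 control libraries and filled circles for the 4 2-MiCit libraries. All but ESRP2 and HSPG2 come from the genes chosen for no overlap of groups; SLC1A4, ITGB4 and KRT80 lie to the right of their controls and SRSF1, CLK3 and SLC25A10 to the left.

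Genes of amino acid synthesis rose in part. Of 19 tested, 9 rose and 4 fell (median log2 fold change 0.24). ASNS, which makes asparagine, was at 128, 129.8, 126 and 119 CPM in controls and 372, 369, 389 and 364 CPM with 2-MiCit, with no overlap (log2 fold change 1.57, SE 0.048). GPT2, the mitochondrial alanine aminotransferase (ENSG00000166123, chromosome 16, 46884378 to 46931297), went from 47.4, 44.8, 42.8 and 37.7 CPM to 66.6, 68.8, 69.0 and 72.0 CPM. No library of GPT2 crossed between groups and it rose 1.60-fold (adjusted p = 8.96e-05). ALDH1L2, a mitochondrial folate enzyme, rose 3.08-fold from 0.877 CPM (adjusted p = 2.87e-04), and MTHFD2 rose by 0.35 on the log2 scale. The fallers included the serine hydroxymethyltransferase SHMT2 by 0.24, the proline enzyme ALDH18A1 by 0.24 and the aspartate aminotransferase GOT2 by 0.27 (adjusted p = 0.00847, 0.00568 and 0.00141).

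Of 18 tested effectors of the integrated stress response, 14 rose and none fell by edgeR, with a median log2 fold change of 0.43. ATF3, a stress-induced factor (ENSG00000162772, chromosome 1, 212565334 to 212620777), had 22.7, 22.1, 20.6 and 21.5 CPM in controls and 38.7, 38.8, 37.9 and 35.9 CPM treated. Its groups were separate, and ATF3 rose 1.74-fold (adjusted p = 2.09e-05). DDIT4, an inhibitor of the growth kinase mTORC1 (ENSG00000168209, chromosome 10, 72273920 to 72276036), had 44.7, 38.7, 37.3 and 31.9 CPM and 85.7, 80.0, 88.6 and 72.8 CPM. Treated values were all above the controls (2.14-fold, adjusted p = 4.25e-05). ATF4 itself rose by 0.37, its partner CEBPG by 0.48, the pseudokinase TRIB3 by 0.68 and the factor DDIT3 by 0.46 on the log2 scale (adjusted p = 9.75e-04, 4.49e-05, 1.86e-04 and 0.0121). The translation repressor EIF4EBP1, another known ATF4 target, had 0.084 and was not called (adjusted p = 0.435).

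ASNS, CHAC1, ATF3 and the synthetase AARS1 carried the letters TGATGNAA of the C/EBP-ATF response element on either strand in the 250 bases before their RefSeq start. They were picked among genes that rose, and are shown because this element is the known binding site of ATF4 with C/EBP partners. Each line gives up to 30 bases from RefSeq (GRCh38.p14), read along the strand of the gene, with the match in capitals. Where the match reads TTGCATCA the element lies on the opposite strand.
ASNS, chr7:97872458-97872487, minus strand, 68 bases before the start: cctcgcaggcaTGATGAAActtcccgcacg
CHAC1, chr15:40953251-40953280, plus strand, 209 bases before the start: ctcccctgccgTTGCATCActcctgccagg
ATF3, chr1:212565205-212565234, plus strand, 191 bases before the start: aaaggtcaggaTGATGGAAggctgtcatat
AARS1, chr16:70289675-70289704, minus strand, 187 bases before the start: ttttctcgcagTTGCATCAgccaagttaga

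A match is a description of letters and not a bound site, and the ASNS, CHAC1 and AARS1 matches lie in exons annotated in GENCODE 29. RefSeq windows were found for 10057 of 12802 tested genes with a unique symbol, and 1.32% of them held the element (133), against 1.84% of genes called higher and 1.28% of genes called lower. Among amino acid carriers 1 of 22 windows held it, in SLC1A3. Of the cytosolic tRNA synthetases, 2 of 16 windows held it (AARS1 and IARS1). Of the stress effectors, 2 of 15 windows held it (ATF3 and CHAC1), and of the synthesis genes 3 of 12 (ASNS, GOT1 and MTHFD1L). GOT1 and MTHFD1L were not called, with log2 fold changes of -0.017 and -0.055.

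Of the enzymes that charge tRNAs, cytosolic members were called in both directions and mitochondrial ones only lower. Of 20 cytosolic aminoacyl-tRNA synthetases, 8 rose and 5 fell (median log2 fold change 0.04). Of 17 mitochondrial ones, none rose and 7 fell by edgeR (median -0.18). The mitochondrial count was 3 without control replicate 2 and 4 without 2-MiCit replicate 2, shares near the background. AARS1, the cytosolic alanine enzyme (ENSG00000090861, chromosome 16, 70252295 to 70289543), read 233, 243, 236 and 229 CPM in controls and 353, 360.1, 357 and 361 CPM treated. It rose 1.52-fold with no shared range (adjusted p = 1.31e-05). Its mitochondrial counterpart AARS2 (ENSG00000124608, chromosome 6, 44299654 to 44313326) read 27.6, 25.9, 28.9 and 25.7 CPM and 20.0, 18.9, 18.9 and 20.2 CPM. AARS2 moved the other way and fell by 0.47 on the log2 scale, again without overlap (adjusted p = 4.63e-04). The cysteine, glycine and serine enzymes CARS1, GARS1 and SARS1 rose by 0.59, 0.37 and 0.31. RARS1, the arginine enzyme (ENSG00000113643, chromosome 5, 168486445 to 168519299), went from 218, 208, 208 and 216 CPM to 161, 149.6, 161 and 155 CPM. Its treated libraries were lower throughout (fell by 0.44 on the log2 scale, adjusted p = 7.87e-05). The histidine, lysine and phenylalanine enzymes HARS1, KARS1, FARSA and FARSB fell by 0.36, 0.40, 0.46 and 0.38.

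**Figure D3:**
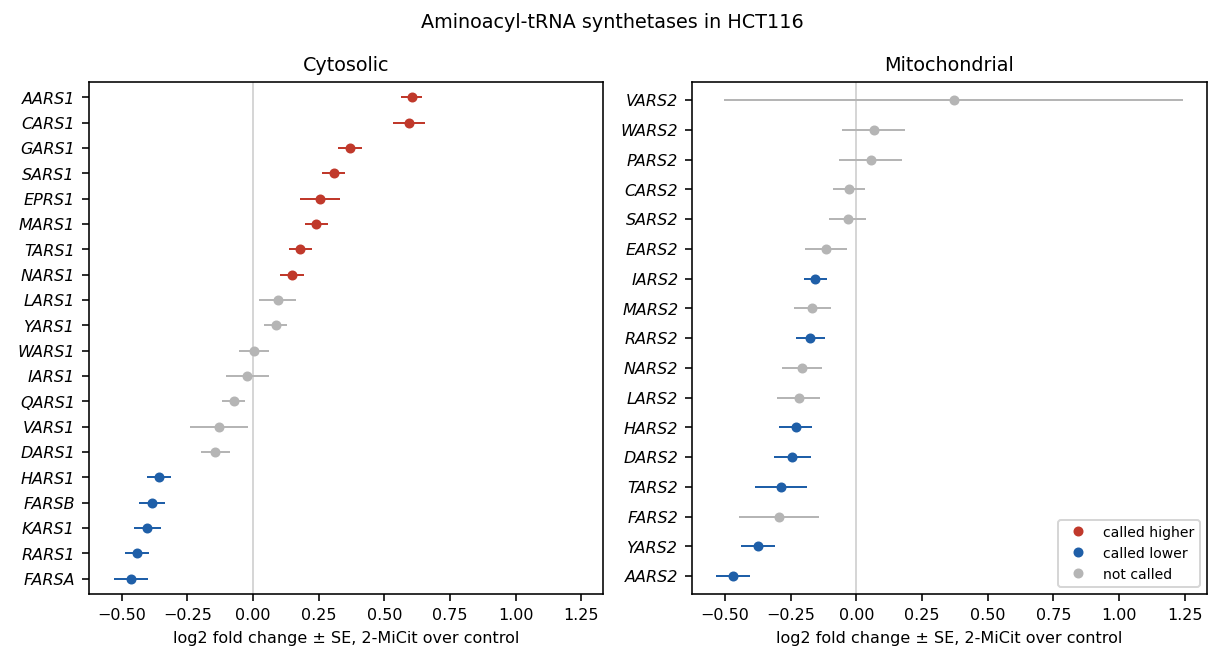
Log2 fold change with its SE (x axis) of 20 cytosolic and 17 mitochondrial aminoacyl-tRNA synthetases in HCT116, each gene on its own row, red where called higher, blue where called lower and grey where not called. AARS1 and CARS1 head the cytosolic panel at 0.60 and 0.59, FARSA closes it at -0.46, and no mitochondrial enzyme was called higher.

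More splicing factors fell than rose, by small amounts. Splicing removes introns through the U1, U2 and U4/U6.U5 ribonucleoproteins, and exon choice is set by serine/arginine-rich (SR) proteins, which usually promote exon use, and by hnRNPs, which often repress it. Of 13 tested SR proteins, 11 fell and none rose by edgeR, with a median log2 fold change of -0.42 against 0.03 over all genes. SRSF1, the founding SR protein (ENSG00000136450, chromosome 17, 58003360 to 58007346), stood at 602, 609, 565 and 622 CPM in controls and 369.6, 351, 348 and 364 CPM with 2-MiCit. The 4 treated libraries were the lowest 4, and SRSF1 had a log2 fold change of -0.74 (SE 0.047, adjusted p = 9.97e-06). TRA2B, an SR-like activator of exons (ENSG00000136527, chromosome 3, 185915906 to 185938136), stood at 264, 255, 248 and 244 CPM and 162, 152, 154 and 150.1 CPM. It fell by 0.71 with the same separation (adjusted p = 1.13e-05). TRA2A, SRSF2, SRSF7 and SRSF3 fell by 0.55, 0.50, 0.47 and 0.42. SRSF5 was not called at -0.15 (adjusted p = 0.13, and 0.0477 without 2-MiCit replicate 1). SRSF8, an intronless copy of another family member, was not called at 0.11, and reads of such copies are hard to assign.

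Of 8 kinases that phosphorylate SR proteins, 3 fell and none rose by edgeR (0 by DESeq2, 1 at an unadjusted p below 0.05). CLK3 (ENSG00000179335, chromosome 15, 74598500 to 74645414) had 52.1, 47.9, 50.8 and 46.7 CPM in controls and 32.4, 30.1, 28.1 and 29.8 CPM treated. Its treated libraries were all lower, by 0.71 on the log2 scale (adjusted p = 4.27e-05). CLK2 had 9.83, 6.19, 6.94 and 8.40 CPM in controls and 3.08, 3.63, 1.73 and 2.07 CPM treated, a log2 fold change of -1.57 (adjusted p = 6.73e-04; 0.204 in 1 fit over the 4 lines of the table). CLK2 is low in these libraries and its gene model overlaps HCN3 on the other strand (log2 fold change 0.11), so reads of the pair may not be told apart unless the authors counted by strand, which the sources used here do not state. The related kinases CLK1 and CLK4 had log2 fold changes of 0.020 and 0.21 and were not called (adjusted p = 0.882 and 0.247). SRPK1 fell by 0.26 (adjusted p = 0.00846), while SRPK2 was not called at 0.081.

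Of 25 tested hnRNPs, 19 fell and 1 rose (median log2 fold change -0.28). HNRNPM (ENSG00000099783, chromosome 19, 8444767 to 8489114) was at 794, 738, 736 and 712 CPM in controls and 451, 425, 486 and 422 CPM with 2-MiCit. HNRNPA1, a repressor of exons and a family with many processed copies (ENSG00000135486, chromosome 12, 54280193 to 54287088), was at 1983, 1900.4, 1946 and 1876 CPM and 1317, 1232, 1366 and 1239 CPM. In both genes all treated values were below all controls, with falls of 0.74 and 0.58 on the log2 scale (adjusted p = 2.38e-05 and 3.37e-05). HNRNPDL fell by 0.70, HNRNPAB by 0.63 and the polypyrimidine tract protein PTBP1 by 0.26. PTBP2 and PTBP3 had log2 fold changes of -0.20 and 0.16 and were not called.

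Of 27 proteins of the U1 and U2 particles and of 3' splice site recognition, 22 fell and none rose by edgeR (median -0.32). U2AF2, which binds the polypyrimidine tract (ENSG00000063244, chromosome 19, 55654146 to 55674715), read 319.7, 340.4, 342 and 332 CPM in controls and 237, 245, 245 and 242 CPM treated. Its fall of 0.46 on the log2 scale separated every library (adjusted p = 4.63e-05). The other chain of that heterodimer, U2AF1, was not called at 0.059 (adjusted p = 0.883); a near-identical copy of U2AF1 exists in the genome reference, so its counts are uncertain. SNRNP70 of the U1 particle fell by 0.55, the core ring protein SNRPG by 0.57 and SF3B2 by 0.45. SF3B1, the large U2 subunit that is often mutated in blood cancers, was not called at -0.11 (adjusted p = 0.211).

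Of 35 tri-snRNP and Prp19 complex proteins, 17 fell and none rose by edgeR (median -0.24). EFTUD2, the U5 GTPase (ENSG00000108883, chromosome 17, 44849943 to 44899662), read 217, 237, 225 and 235 CPM in controls and 145, 153, 149 and 159 CPM treated. All treated libraries were lower (fell by 0.60 on the log2 scale, adjusted p = 2.85e-05). SART1, SNRNP40 and PRPF4 fell by 0.53, 0.51 and 0.54. The largest core proteins of the same particle, PRPF8 and SNRNP200, were not called at -0.056 and -0.027 (adjusted p = 0.754 and 0.895).

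Tissue-type regulators of exon choice moved in both directions. Of 32, 17 fell and 4 rose (median -0.17). MBNL2, a regulator of developmental exons (ENSG00000139793, chromosome 13, 97221434 to 97394120), had 68.0, 71.6, 66.3 and 75.9 CPM in controls and 124, 139.9, 122 and 135 CPM with 2-MiCit. MBNL2 was higher in all treated libraries, 1.85-fold (adjusted p = 1.55e-05), while its paralog MBNL1 fell by 0.35 (adjusted p = 0.0108). The epithelial splicing regulators also parted: ESRP1 rose by 0.42 and ESRP2 fell by 0.43 on the log2 scale (adjusted p = 4.09e-04 and 0.0011). ESRP1 read 96.5, 96.8, 89.0 and 102 CPM in controls and 129, 130.0, 119 and 134 CPM treated, with the treated libraries on top. ESRP2 averaged 59.3 ± 3.42 CPM in controls and 43.9 ± 3.46 CPM treated (SD, n = 4 each). RBFOX2 rose by 0.39. RBM25, EWSR1 and SFPQ, abundant RNA-binding proteins, fell by 0.49, 0.40 and 0.37.

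Downstream of splicing, most core subunits of the exon junction complex fell. Of 15 members, 5 fell and 2 rose. Of the core subunits MAGOHB, EIF4A3, RBM8A and MAGOH fell by 0.63, 0.41, 0.31 and 0.28, and CASC3 rose by 0.23. The decay helicase UPF1 had 0.014 and was not called (adjusted p = 0.865), SMG5 rose by 0.31 and SMG8 fell by 0.29. Of 24 factors of 3' end formation and export 13 fell and none rose by edgeR (median -0.22), led by the export adaptor ALYREF at -0.66 (adjusted p = 1.65e-04). These are counts per gene, and they do not measure exon use or isoforms.

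Of integrin chains and basement membrane genes, those that were called in the main fit rose. With the replicate block, with the length trend removed or without 2-MiCit replicate 3, 1 integrin chain was called lower. Integrins bind the matrix, and integrin α6β4 with laminin-332 anchors epithelium to the basement membrane at hemidesmosomes. Of 13 tested integrin chains, 5 rose and none fell by edgeR (0 by DESeq2, 1 at an unadjusted p below 0.05) (median 0.19). ITGB4 (ENSG00000132470, chromosome 17, 75721328 to 75757818) was at 195, 209, 231 and 207 CPM in controls and 502, 552, 521 and 538 CPM with 2-MiCit. Treated ITGB4 was above the controls in all libraries, 2.51-fold (adjusted p = 1.71e-06), while its partner chain ITGA6 was not called at 0.14 (adjusted p = 0.273). ITGB8, which binds latent TGF-beta (ENSG00000105855, chromosome 7, 20330702 to 20415754), was at 13.0, 12.5, 14.6 and 14.8 CPM and 27.1, 30.6, 24.6 and 32.02 CPM. It rose 2.09-fold without overlap (adjusted p = 5.18e-05). ITGB5 rose 1.51-fold (adjusted p = 2.51e-05). The remaining 2 calls were weak: without 2-MiCit replicate 2 the count was 3, with ITGA3 at an adjusted p of 0.0631 and ITGB1 at 0.0708, and without 2-MiCit replicate 4 it was also 3 (0.0596 and 0.0759). ITGB1 also lost its call without control replicate 1, 2 or 3 (adjusted p = 0.0618, 0.0519 and 0.0736). A count of 3 of 13 chains is a share near the background of 19.0%. With the length trend removed the median of the chains was 0.10.

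Of 24 tested basement membrane and matrix genes, 17 rose and none fell by edgeR, with a median log2 fold change of 0.57. That was the highest of the 43 lists in the main fit, but not in every alternative. With the length trend removed it was 0.46, against 0.49 for keratins. Without control replicate 1 it was 0.54, against 0.56 for keratins. With the length trend removed and the replicate block together, 1 matrix gene was called lower. LAMB3, a chain of laminin-332 (ENSG00000196878, chromosome 1, 209614870 to 209652466) read 79.6, 85.0, 83.8 and 86.8 CPM in controls and 121, 127, 128 and 136 CPM treated. Treated LAMB3 was higher in every library (1.53-fold, adjusted p = 3.04e-05). LAMA3, another chain of it, rose 1.85-fold (adjusted p = 0.00209). LAMA5 and LAMB2 of the other laminins rose 1.54- and 1.496-fold, and LAMB1 and LAMC1 were not called at log2 fold changes of -0.11 and 0.12. THBS1, a matrix glycoprotein that activates TGF-beta (ENSG00000137801, chromosome 15, 39581079 to 39599466), read 37.2, 43.1, 43.4 and 48.3 CPM in controls and 103, 115, 106 and 126 CPM treated. The groups were far apart, 2.61-fold (adjusted p = 9.97e-06). HSPG2, the basement membrane proteoglycan perlecan, rose 2.36-fold from 24.7 ± 2.19 to 58.4 ± 9.35 CPM (SD, n = 4 each, adjusted p = 4.32e-05). COL17A1, the hemidesmosome collagen, rose 2.21-fold (adjusted p = 0.00791), and the crosslinking oxidases LOXL2 and LOXL4 rose 1.59- and 4.11-fold.

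Most genes of cell to cell junctions were not called in the main fit, but more were called with the replicate number as a block. With that block 7 adherens junction genes rose and 1 fell, 8 desmosome and hemidesmosome genes rose and 1 fell, and 14 tight junction genes rose. Over all 13834 tested genes the block also called more, 3674 higher and 3348 lower against 2635 and 2489 in the main fit. With the length trend removed instead, the medians of these 3 lists were 0.093, 0.068 and 0.21, against 0.15, 0.15 and 0.26. The counts that follow are from the main fit. Of 13 adherens junction genes 5 rose and none fell by edgeR (1 by DESeq2, 0 at an unadjusted p below 0.05) (median 0.15), a count of 3 without control replicate 2, when NECTIN4 and CDH3 had adjusted p of 0.0576 and 0.0794. Without 2-MiCit replicate 1 NECTIN4 had 0.0614, and without 2-MiCit replicate 2 CDH3 had 0.0878. CDH1, E-cadherin (ENSG00000039068, chromosome 16, 68737225 to 68835548), read 34.8, 38.5, 33.2 and 41.0 CPM in controls and 47.1, 52.7, 47.2 and 55.3 CPM treated. All treated CDH1 values exceeded the controls (1.37-fold, adjusted p = 0.00207). The catenin JUP rose 1.33-fold, and CTNNB1 and CTNNA1 were not called at -0.089 and 0.069. Of 12 desmosome and hemidesmosome genes 3 rose and 1 fell. PPL, periplakin, a linker of junctions to keratin (ENSG00000118898, chromosome 16, 4882507 to 4960741), read 40.4, 43.2, 40.2 and 46.7 CPM in controls and 91.1, 108, 87.2 and 114 CPM treated. It rose 2.35-fold without overlap (adjusted p = 2.11e-05). The armadillo protein PKP2 and the giant linker PLEC rose by 0.35 and 0.48 on the log2 scale, and desmoplakin DSP was not called at 0.23 (adjusted p = 0.287).

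Of 18 tight junction genes 8 rose and none fell by edgeR (median 0.26). TJP3 (ENSG00000105289, chromosome 19, 3708109 to 3750813), a scaffold of the junction, read 11.2, 13.3, 11.0 and 11.8 CPM in controls and 19.2, 24.1, 20.0 and 18.0 CPM with 2-MiCit. Treated TJP3 lay above in every library (1.72-fold, adjusted p = 3.63e-04). Cingulin CGN rose by 0.44 and PATJ by 0.46, whereas TJP1 was not called at 0.14 (adjusted p = 0.175). Of 7 keratins 5 rose and none fell by edgeR (median 0.49). KRT80 (ENSG00000167767, chromosome 12, 52168996 to 52192000) went from 12.4, 16.2, 17.5 and 14.7 CPM to 43.3, 45.6, 44.7 and 50.8 CPM. Its groups were separate (3.03-fold, adjusted p = 1.06e-05). KRT7 rose 2.18-fold. KRT8 and KRT18, the partner keratins of simple epithelium, rose 1.40- and 1.44-fold, and as their gene models overlap and both have many processed copies, their split is uncertain. KRT19 was not called at 0.11 (adjusted p = 0.253).

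Of 20 focal adhesion genes 8 rose and 1 fell (median 0.16), or 6 and 1 with the length trend removed (median 0.10). PARVA, a link from integrin-linked kinase to actin (ENSG00000197702, chromosome 11, 12377185 to 12535356), read 52.7, 54.6, 53.7 and 61.5 CPM in controls and 92.9, 94.0, 83.0 and 100.1 CPM treated. It was higher in all treated libraries, by 1.66-fold (adjusted p = 6.26e-05). TNS3 and TNS4 rose 1.72- and 1.48-fold, while talin TLN1, the kinase PTK2 and ILK were not called at 0.060, 0.057 and 0.090. Of 16 genes of pericellular proteolysis 7 rose and 1 fell (median 0.20), and the fallers numbered 3 without control replicate 4 or without 2-MiCit replicate 3. PLAU, urokinase (ENSG00000122861, chromosome 10, 73909177 to 73917497), read 63.5, 63.8, 56.2 and 58.2 CPM in controls and 123, 119, 123 and 118 CPM treated. PLAU rose 1.99-fold with no overlap (adjusted p = 4.80e-06). Its receptor PLAUR was not called at -0.22 (adjusted p = 0.0619). PLAUR was called lower without control replicate 4 (adjusted p = 0.028) and without 2-MiCit replicate 3 (adjusted p = 0.0437). The membrane protease MMP14 and the inhibitor TIMP2 rose 1.49- and 1.92-fold. Of 12 other surface adhesion molecules 4 rose and 2 fell. The laminin receptor BCAM rose 1.72-fold, and MCAM fell by 0.44 on the log2 scale.

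Of 20 actomyosin genes 9 rose and 3 fell (median 0.09). MYL9, a regulatory light chain of contractile myosin (ENSG00000101335, chromosome 20, 36541484 to 36551447), read 69.4, 70.3, 73.6 and 62.3 CPM in controls and 118, 116, 128 and 119 CPM treated. Treated MYL9 was above all controls (1.74-fold, adjusted p = 2.09e-05). The fallers included the cytoplasmic actin ACTG1 (-0.21) and TPM3 (-0.29), while ACTB was not called at -0.026 (adjusted p = 0.73). TAGLN overlaps PCSK7 on the other strand, and PCSK7 had a log2 fold change of -0.26.

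Several adhesion and actin genes are known targets of YAP and TEAD, a pathway that senses tension and cell contact. Of 18 targets and pathway members 12 rose and 1 fell, with a median log2 fold change of 0.35. CRIM1 (ENSG00000150938, chromosome 2, 36355926 to 36551135) read 103, 126, 116 and 132 CPM in controls and 188, 212, 183 and 225 CPM treated. It was higher in every treated library (1.69-fold, adjusted p = 1.81e-04). AXL, a receptor kinase, and NT5E, an ectonucleotidase, rose 1.47- and 1.41-fold. CCN2 rose 1.82-fold and its relative CCN1 1.20-fold. ANKRD1 was low, at 0.413 ± 0.128 CPM in controls and 2.15 ± 0.440 CPM treated (SD, n = 4 each; log2 fold change 2.39, adjusted p = 1.58e-04). ANKRD1 passed the filter on low counts through its treated libraries alone, so it had to differ, and its call supports nothing; without it 11 of 17 rose. Of the pathway proteins, WWTR1 (TAZ) rose by 0.43, YAP1 was not called at 0.087, and TEAD4 fell by 0.29.

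Sites with the TEAD letters GGAATG, searched on both strands in the same 250-base windows, are shown for CCN2 and ANKRD1 of this list and THBS1 of the matrix list, all picked among genes that rose, since TEAD factors are known to bind these letters. Capitals mark each match along the strand of the gene in RefSeq GRCh38.p14.
CCN2 first site, chr6:131951524-131951553, minus strand, 169 bases before the start: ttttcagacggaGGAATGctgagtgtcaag
CCN2 paired sites, chr6:131951459-131951488, minus strand, 104 and 95 bases before the start: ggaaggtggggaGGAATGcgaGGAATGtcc
ANKRD1, chr10:90921290-90921319, minus strand, 220 bases before the start: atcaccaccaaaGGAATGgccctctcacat
THBS1, chr15:39581021-39581050, plus strand, 46 bases before the start: gaggaatccccaGGAATGcgagcgcccctt

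The letters are short and common. Of all 10057 windows 9.12% held them, against 10.4% of genes called higher and 8.40% of genes called lower. In the YAP and TEAD list 3 of 12 windows held them (CCN2, ANKRD1 and YAP1), and in the matrix list 3 of 19 (COL12A1, THBS1 and CCN2). ANKRD1 held a further match, not shown, in an exon annotated in GENCODE 29.

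Protein folding and degradation genes fell almost as whole complexes. The proteasome degrades ubiquitin-tagged proteins, and the chaperonin CCT folds actin and tubulin. Of 30 tested proteasome subunits 29 fell, none rose by edgeR, and PSMB3 was not called (-0.65, adjusted p = 0.754). PSMB3 was listed at 0 in control library 3 and in 2-MiCit library 3, and its values spread from there up to 119 CPM in controls and 94.9 CPM treated. The median log2 fold change was -0.48, in a range from -0.73 to -0.25. PSMD11, a lid subunit (ENSG00000108671, chromosome 17, 32444261 to 32483318), read 255, 267, 264 and 274 CPM in controls and 174, 181, 179 and 183 CPM with 2-MiCit. PSMD13 of the same lid (ENSG00000185627, chromosome 11, 236546 to 252984) read 305, 276, 280.0 and 262 CPM and 174, 156, 183 and 163 CPM. The treated libraries were lower throughout for both, by 0.56 and 0.73 on the log2 scale (adjusted p = 2.11e-05 and 3.92e-05).

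Of 16 chaperonin and prefoldin genes 14 fell and none rose by edgeR (median -0.44). All 8 CCT subunits fell, by 0.42 (CCT3) to 0.61 (CCT2) on the log2 scale. CCT2 (ENSG00000166226, chromosome 12, 69585334 to 69601570) read 733, 700.0, 691 and 697 CPM in controls and 466, 448, 492 and 448 CPM treated, with no overlap (adjusted p = 2.38e-05). The mitochondrial pair HSPD1 and HSPE1 fell by 0.55 and 0.67. Among tubulins and their folding cofactors 11 of 14 fell and none rose by edgeR (median -0.53). TUBA1B (ENSG00000123416, chromosome 12, 49127782 to 49131397) read 2523, 2471, 2479.7 and 2285 CPM in controls and 1449, 1443, 1579 and 1364 CPM treated. The 4 treated libraries were the 4 lowest (fell by 0.74 on the log2 scale, adjusted p = 2.11e-05). The tubulin genes are near-identical copies, so how reads were shared among TUBA1B, TUBA1C and TUBA1A is uncertain. TUBA1A was not called at 0.077.

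More nuclear transport and translation initiation genes fell than rose. Of 36 nuclear transport genes 18 fell and 1 rose (median -0.26). RCC1, which loads the GTPase RAN on chromatin (ENSG00000180198, chromosome 1, 28505943 to 28539300), read 265, 273, 268 and 276 CPM in controls and 174, 178, 180.2 and 183 CPM treated. It fell by 0.60 on the log2 scale with separate groups (adjusted p = 1.38e-05), and RAN itself fell by 0.52 and RANBP1 by 0.61. The importin KPNA2 and the exportin XPO1 fell by 0.55 and 0.34, while IPO7 was not called at -0.17 (adjusted p = 0.148). Of 32 initiation factors 24 fell and 1 rose (median -0.32). The riser was EIF4A2 (ENSG00000156976, chromosome 3, 186783205 to 186789900), with 337, 252, 274 and 245 CPM in controls and 465, 376, 418 and 379 CPM treated. Its paralog EIF4A1 (ENSG00000161960, chromosome 17, 7572706 to 7579005) went the other way, with 1512, 1508, 1503 and 1477 CPM and 954, 938, 1032 and 950.0 CPM. Neither gene's groups overlapped, with log2 fold changes of 0.57 and -0.63 (adjusted p = 0.00268 and 1.70e-05). These helicases are close in sequence, and EIF4A1 shares exons with the readthrough gene SENP3-EIF4A1. All 5 subunits of eIF2B, the exchange factor inhibited in the integrated stress response, fell, EIF2B2 by 0.57 and EIF2B5 by 0.19. The scaffold EIF4G1 fell by 0.54, and EIF4B was not called at -0.030.

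Most tested genes of mitochondrial import and of the mitochondrial ribosome fell. Of 25 import genes 19 fell and none rose by edgeR (median -0.36). TOMM40, the channel of the outer membrane (ENSG00000130204, chromosome 19, 44890569 to 44903689), read 308, 299, 312 and 288 CPM in controls and 187, 177, 204 and 185 CPM treated. It fell by 0.68 in separate groups (adjusted p = 2.35e-05), and the small chaperone TIMM13 by 0.85. Of 44 mitochondrial ribosome proteins 36 fell and none rose by edgeR (0 by DESeq2, 1 at an unadjusted p below 0.05) (median -0.33). MRPL3 (ENSG00000114686, chromosome 3, 131462212 to 131502983) read 264, 257, 251 and 269.8 CPM in controls and 192, 191, 193 and 188 CPM treated. Treated MRPL3 was lower in all libraries (fell by 0.45, adjusted p = 5.24e-05). MRPL12, MRPL20 and MRPL4 fell by 0.65, 0.61 and 0.46, and MRPS25 and MRPS16 were not called at 0.0017 and 0.011.

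Enzymes that handle citrate and isocitrate, the natural relatives of 2-MiCit, were mixed. Of 20 tested genes 4 rose and 7 fell (median -0.09), and the risers numbered 2 without 2-MiCit replicate 2 or 3. IDH2, the mitochondrial NADP-linked isocitrate dehydrogenase (ENSG00000182054, chromosome 15, 90083045 to 90102504), read 30.7, 28.7, 30.6 and 26.6 CPM in controls and 40.4, 41.1, 45.6 and 37.1 CPM treated. IDH2 was higher in every treated library (1.41-fold, adjusted p = 8.60e-04). IDH3A, the catalytic chain of the NAD-linked enzyme (ENSG00000166411, chromosome 15, 78131498 to 78171949), read 124, 137, 121 and 131 CPM and 101, 105, 97.7 and 102 CPM. It fell by 0.34 on the log2 scale with separate groups (adjusted p = 7.03e-04), with the regulatory chain IDH3B at -0.32. Cytosolic IDH1 and the aconitase ACO1 were not called at 0.052 and 0.077 (adjusted p = 0.552 and 0.344). Citrate synthase CS, the citrate lyase ACLY and fumarase FH fell by 0.24, 0.31 and 0.30.

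Lysosomal genes had no common direction, with 12 higher and 9 lower of 41 (median 0.02). The beta-galactosidase GLB1 rose by 0.43 and the autophagy kinase ULK1 by 0.41, while the proton pump subunit ATP6V0B fell by 0.60 (adjusted p = 2.49e-04, 0.00248 and 9.22e-04). Circadian output genes rose together, 10 of 14 and none lower by edgeR (median 0.46). TEF, a clock-controlled bZIP factor (ENSG00000167074, chromosome 22, 41367333 to 41399326), read 14.8, 14.3, 14.6 and 13.7 CPM in controls and 24.2, 22.4, 22.2 and 20.8 CPM treated. TEF was above in all treated libraries (1.56-fold, adjusted p = 1.19e-04). Its relative DBP (ENSG00000105516, chromosome 19, 48630030 to 48637438) read 11.5, 9.61, 9.58 and 7.75 CPM and 20.4, 17.2, 18.2 and 13.0 CPM, also apart (1.79-fold, adjusted p = 0.00176). The repressors CRY1, PER2 and NR1D2 rose by 0.45, 0.49 and 0.47, and the core activators CLOCK and BMAL1 were not called at 0.045 and -0.11 (adjusted p = 0.868 and 0.259).

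Of 19 feedback targets of ERK signalling 6 rose and 1 fell (median 0.18), with the phosphatases DUSP4 and DUSP6 at 0.52 and 0.44, DUSP7 at -0.36 and MYC not called at -0.14 (adjusted p = 2.07e-04, 0.00835, 0.00211 and 0.173). Of 21 genes of the G1 phase 6 rose and 5 fell (median 0.02). RBL2, the retinoblastoma relative p130 of resting cells (ENSG00000103479, chromosome 16, 53433977 to 53491649), read 22.4, 24.7, 25.8 and 27.5 CPM in controls and 47.4, 49.3, 42.0 and 49.3 CPM treated. RBL2 rose 1.87-fold with no overlap (adjusted p = 3.92e-05). CDK4 (ENSG00000135446, chromosome 12, 57747727 to 57756013) read 240.4, 232, 223 and 206 CPM and 178, 158, 184 and 155 CPM. CDK4 fell by 0.42 with the treated libraries lower throughout (adjusted p = 0.00136). CCNG2 rose 1.75-fold, and CCND1, RB1 and CDKN1B were not called at 0.021, -0.037 and 0.037. Of 19 NRF2 targets 7 rose and 3 fell (median 0.12). OSGIN1 and NQO1 rose 2.06- and 1.47-fold, HMOX1 was not called at 0.13 (adjusted p = 0.154), and the pentose phosphate enzymes PGD and TALDO1 fell by 0.16 and 0.27.

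The 20 largest rises by the naming rule also included PAQR8, TSC22D3, TNNC1, DCLK1, H2AC6, GDF15 and KLRC2. TSC22D3, the glucocorticoid-induced leucine zipper (ENSG00000157514, chromosome X, 107713221 to 107777342), read 4.67, 4.27, 5.66 and 4.39 CPM in controls and 15.2, 14.4, 16.9 and 13.0 CPM treated. Its groups were apart (3.14-fold, adjusted p = 1.55e-05). GDF15, a secreted stress cytokine, read 60.5, 52.3, 60.9 and 43.5 CPM and 167, 158, 183 and 123 CPM (2.90-fold, adjusted p = 8.33e-05), likewise without overlap. PAQR8, a membrane progesterone receptor, rose 3.16-fold, and H2AC6, a replication-dependent histone H2A gene of a family of near-identical copies, 2.91-fold. The 20 largest falls by that rule also included HSPA14, a ribosome-associated Hsp70, which fell by 0.81 on the log2 scale, the fatty acid binding protein FABP5 (-0.81), the cytosolic chaperone HSP90AB1 (-0.82) and WDR4, a subunit of a tRNA methyltransferase (-0.79). FABP5 and HSP90AB1 have many processed copies, so their values are uncertain.

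The effect in HCT116 was then set against the mean of the effects in DLD1, LoVo and SW948, the other 3 lines of the same count table, each with 4 control and 4 2-MiCit libraries. Of 15800 genes tested for this difference, 7.34% had a more positive effect in HCT116 (1160) and 5.23% a more negative one (827). Without DLD1 control replicate 1 these counts were 1301 and 1355. The genes named here were chosen by the smallest p of the difference itself, among genes called the same way in HCT116. Their values are a description of that choice. ASNS had a log2 fold change of 1.59 in HCT116, 0.41 in DLD1, -0.27 in LoVo and 0.15 in SW948, a difference of 1.4995 (SE 0.076, adjusted p = 9.75e-14). PDCD4, a repressor of the helicase eIF4A (ENSG00000150593, chromosome 10, 110871795 to 110900006), had 1.31, 0.26, 0.11 and 0.17 in the same order, a difference of 1.13 (adjusted p = 1.42e-10). DGAT2, which makes triglyceride (ENSG00000062282, chromosome 11, 75759512 to 75801535), had 1.28 in HCT116 and between -0.092 and 0.12 in the others, a difference of 1.26 (adjusted p = 2.24e-09). LRP11, ARSD and ARPIN, an inhibitor of actin branching, had differences of 0.89, 1.12 and 0.87, the serine enzyme PSAT1 of 1.12 and ABCC3 of 1.64.

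Among the more negative effects of genes called lower in HCT116, splicing and proteasome genes stood in the first 8. Beside the background of 5.23%, the effect was more negative in HCT116 for 7 of 13 SR proteins, 10 of 25 hnRNPs, 6 of 27 proteins of the U1 and U2 particles, 12 of 30 proteasome subunits and 9 of 16 chaperonin genes. Beside 7.34%, it was more positive for 7 of 24 matrix genes, 8 of 25 amino acid carriers and 6 of 18 stress effectors. Nearer the background, the effect was more negative for 4 of 44 mitochondrial ribosome proteins and 2 of 31 mitochondrial carriers. Both backgrounds are over 15800 genes, while list members come from the 13834 genes tested in HCT116 alone. How far that mismatch raises the list shares was not tested. TRA2B had -0.69 in HCT116, -0.15 in DLD1, -0.18 in LoVo and -0.047 in SW948 (difference -0.56, SE 0.046, adjusted p = 2.40e-09). SRSF1 and HNRNPDL had differences of -0.59 and -0.59, RCC1 of -0.55, and PSMD11 of -0.45. RAD54L, a recombination motor (ENSG00000085999, chromosome 1, 46247688 to 46278473), and CTPS1, which makes CTP (ENSG00000171793, chromosome 1, 40979335 to 41012565), had -0.68 and -0.44, and HGH1 had -0.69. Of the genes with library values above, SLC1A4 differed by 1.35, ITGB4 by 1.20 and THBS1 by 1.38 (adjusted p = 3.53e-09, 2.31e-06 and 3.13e-07). ATF3 was not called in this comparison, with 0.82 in HCT116 and 1.76 in DLD1 (difference 0.15, adjusted p = 0.471). MRPL12 and IDH3A were not called either, with differences of -0.52 and -0.23 (adjusted p = 0.138 and 0.0734).

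**Figure D4:**
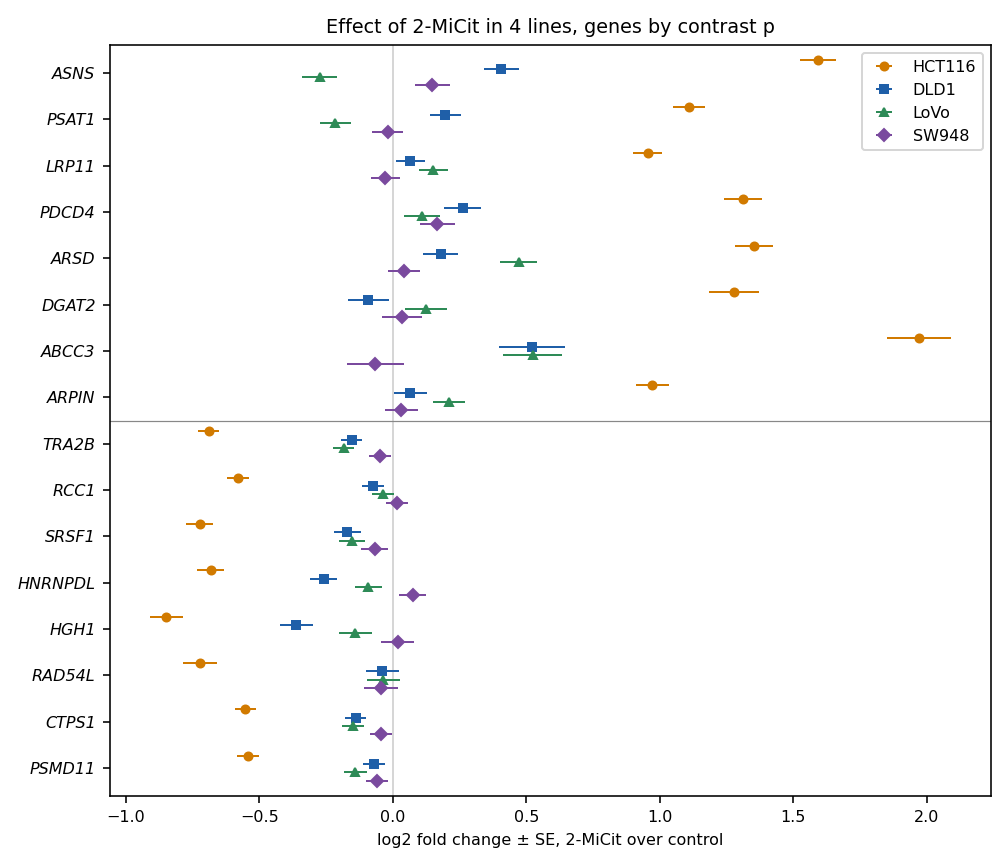
Log2 fold change with its SE (x axis) in HCT116, DLD1, LoVo and SW948 for the 8 genes above and the 8 genes below the dividing line with the smallest p for the difference of HCT116 from the mean of the other 3 lines. The genes were chosen for this difference among genes called the same way in HCT116. HCT116 lies farthest from 0 in all 16, which follows in part from that choice. ASNS reads 1.59 in HCT116 and 0.41 in DLD1.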

How the data were processed

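Whole-number raw counts per gene, as deposited by the authors, were used for the 32 libraries of HCT116, DLD1, LoVo and SW948. Build GRCh38.p13 and the tools Salmon 1.5.0, Trimmomatic 0.39, DESeq2 and bcl2fastq 2.20.0 are named by the submitters' processing notes, without their roles. Per the labels' protocols the kit keeps strand, but whether counting used strand is not given in the labels. Of 59 genes with library values, 14 overlap a gene model on the other strand and 3 on the same strand. SRSF1 shares 3887 bases with the model ENSG00000266086 on its own strand. Among genes of the difference between lines, ARPIN shares 17877 bases with the readthrough gene ARPIN-AP3S2, and LRP11 shares 45229 with ENSG00000285991. The values of SRSF1, ARPIN and LRP11 are therefore uncertain. Salmon shares reads among similar transcripts, so near-identical copies are uncertain.

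Symbols came from GENCODE 29 (GRCh38) and a gene name table for 14944 of 16485 genes. The 8 HCT116 libraries were fitted with edgeR 4.0.16 in R 4.3.3 (filterByExpr with a minimum count of 10, TMM factors, robust quasi-likelihood F test, two-sided). DESeq2 1.42.0 and other settings were alternatives. The difference from the other 3 lines was tested in a fit of all 32 libraries.

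Members and gene lists were chosen with earlier results of these data known. Library values are given for up to 4 called members of a list per direction, smallest p first, with a mean of 5 CPM or more in the higher group and no overlap of groups. Beyond lists, genes were the 20 highest and 20 lowest by fold change, and 8 per direction by the p of the difference between lines. Those 8 were taken among genes called the same way in HCT116. Some genes that these rules pick are not reported here. HCN3 and PCSK7 were named after their values were seen. Precision is limited by 4 libraries per group at 14.9 to 19.4 M counts.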

Additional observations from a re-analysis of the deposited data

Results flagged for a closer look

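Within groups, 1 of 118 sets of 4 libraries with printed values held a library far from the others, where chance gives about 1 in 20. EIF4A1 was at 1032 CPM in 2-MiCit replicate 3, against 938 to 954 CPM in the other treated libraries. Its treated and control values did not overlap.

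By the test of the difference between lines, the effect in HCT116 was more positive than the mean of DLD1, LoVo and SW948 for 1160 genes and more negative for 827. On the log2 scale this difference was 1.64 for ABCC3, 1.4995 for ASNS, 1.38 for THBS1, 1.35 for SLC1A4, 1.26 for DGAT2 and 1.20 for ITGB4. It was 1.13 for PDCD4, 1.12 for ARSD and for PSAT1, 0.89 for LRP11 and 0.87 for ARPIN. Among genes with a more negative effect it was -0.69 for HGH1, -0.68 for RAD54L, -0.59 for SRSF1 and for HNRNPDL, -0.56 for TRA2B, -0.55 for RCC1, -0.45 for PSMD11 and -0.44 for CTPS1.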

How the results depend on the processing

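Over all genes, the stricter filter (5 CPM in 4 libraries) left 114 higher and 9 lower genes past 2-fold, as it tests fewer low genes. Without DLD1 control replicate 1 the difference between lines gave 1355 more negative genes. DESeq2 called 2408 higher and 2740 lower. Leaving out 1 HCT116 library gave 2041 to 2457 higher and 1971 to 2630 lower genes, 222 to 278 and 28 to 42 past 2-fold, and 972 to 1078 more positive and 633 to 791 more negative between lines. Of 218 named genes that were called, 203 were called under every alternative that gave them a value. The call was lost for 12 in 1 fit over 4 lines (ACLY, ATP2A2, CLK2, CS, ITGA3, ITGB1, MAGOH, PLEC, SLC25A12, SLC7A1, SYT1 and TALDO1), where the biological coefficient of variation was 0.152 against 0.122 in HCT116 alone, and for PGD with the length trend removed. The losses on leaving out a library are given beside ITGA3, ITGB1, NECTIN4 and CDH3. Of 53 named genes not called, 21 were called under at least 1 alternative.

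No named gene that was called changed direction, and 22 uncalled ones with log2 fold changes near 0 did. With the length trend removed these were ABCC1 -0.037, ACO1 -0.0018, ACTB 0.0074, CCND1 -0.014, CLOCK -0.041, MPC1 0.028, MPC2 0.0046, TLN1 -0.11 and UPF1 -0.10. With that trend and the replicate block together they were ABCC1 -0.018, ACO1 -0.0022, ACTB 0.0073, CCND1 -0.013, CLOCK -0.040, MPC1 0.026, MPC2 0.0023, TLN1 -0.11 and UPF1 -0.098, of which TLN1 and UPF1 were then called. The single fit gave GOT1 0.0033 and MPC1 0.0017, RLE factors MRPS16 -0.0040, MRPS25 -0.014 and UPF1 -0.0017, DESeq2 MRPS16 -0.0040, MRPS25 -0.013 and UPF1 -0.0018, and no filter MRPS25 -0.0029. Leaving out 1 library gave ranges of ABCC1 -0.025 to 0.33, CCND1 -0.024 to 0.063, CDKN1B -0.013 to 0.095, CLK1 -0.041 to 0.085, CLOCK -0.055 to 0.17, EIF4EBP1 -0.00040 to 0.13, GOT1 -0.053 to 0.0012, HCN3 -0.058 to 0.23, MPC1 -0.085 to 0.046, MPC2 -0.11 to 0.025, MRPS16 -0.035 to 0.045, MRPS25 -0.070 to 0.038, PRPF8 -0.15 to 0.0052, RB1 -0.11 to 0.019, SLC13A5 -0.0067 to 0.32, SNRNP200 -0.13 to 0.049, TLN1 -0.012 to 0.12, TUBA1A -0.0052 to 0.12, U2AF1 -0.16 to 0.19 and UPF1 -0.013 to 0.033. The medians of the nucleoside, zinc, SR kinase, junction complex, lysosome and G1 lists, all near 0, also changed sign under some alternatives; the cause was not tested.

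The replicate block gave 3674 higher and 3348 lower genes, and MRPS25 -0.0023. It moved lower mitochondrial synthetases from 7 to 11, higher integrins from 5 to 8, desmosome genes from 3 to 8, tight junction genes from 8 to 14, ERK feedback targets from 6 to 10, zinc carriers from 3 to 5, higher ion pumps from 5 to 8, lower ion pumps from 3 to 7 and lower nuclear transport genes from 18 to 30. With the length trend also removed, the block gave 3344 higher and 3648 lower genes. It then moved lower tri-snRNP genes from 17 to 27, higher splicing regulators from 4 to 7 and lower ATP-binding cassette pumps from 2 to 6. Lower nucleoside carriers, actomyosin genes and NRF2 targets each moved from 3 to 5. The single fit over 4 lines called fewer genes over all, 2322 higher and 1713 lower against 2635 and 2489 in the main fit. In it, lower mitochondrial ribosome genes moved from 36 to 23, mitochondrial synthetases from 7 to 4 and citrate enzymes from 7 to 4. Higher integrins moved from 5 to 3 in that fit, and DESeq2 moved lower ion pumps from 3 to 5. The main fit did not take the numbers to pair libraries, since no label states that same-numbered libraries share a batch. The values leave room for a part shared by number. Deviations of same-numbered libraries correlated at 0.28, 0.084, 0.12 and 0.21, and those of differently numbered ones at -0.196 to 0.12. The second principal component, 17.9% of the variance, ordered the libraries of both groups as 1, 3, 2 and 4. Against this, 2-MiCit library 2 correlated best with control 4 (0.12). What same-numbered libraries share was not tested, and the main fit leaves it in the spread. With 4 libraries a group, small changes of low genes are not resolved.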
